A study of Mus musculus with 8 samples.

Results

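The genes described here are 35 genes of sterol and fatty acid synthesis that are known targets or regulators of the sterol regulatory element binding proteins (SREBPs), picked by symbol from the 31053 genes counted in the SN4741 libraries. They fall into a sterol branch of 19 genes, a fatty acid branch of 11 genes and a group of 5 regulators. SN4741 is a clonal mouse line labelled as neural precursor cells with genotype WT, derived from embryonic substantia nigra carrying a temperature-sensitive SV40 T antigen under the tyrosine hydroxylase promoter, and the study describes its karyotype as unstable and mostly triploid. Single-cell RNA-seq counted unique molecular identifiers (UMIs), which mark single captured transcripts, in 4 libraries of cells kept at 37 °C in 10% fetal bovine serum and in 4 libraries of cells held for 48 h at 39 °C in 0.5% serum. Temperature and serum changed together, so their shares in any difference cannot be told apart. Nothing in the labels says whether the 4 libraries of a temperature came from separate cultures, and the p-values measure the spread between these libraries only.

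After the study's cell filter, 18351 of 19125 cells remained, with 17166686 to 29633818 UMIs per library. All 35 genes were detected in every library and passed the filter on low counts in every comparison. Of 8 neural precursor markers, 3 passed that filter (Nes, Sox2 and Msi1), while Hes5 had 0 UMIs. Nes was lower at 39 °C (-2.11 ± 0.071 on the log2 scale), and Sox2 (0.47 ± 0.047) and Msi1 (2 UMIs at 37 °C and 10 at 39 °C in all) were called higher. The summed level of the list, most of it from Nes, was 486 to 595 counts per 1000000 (CPM) at 37 °C and 178 to 196 CPM at 39 °C. The summed level of 8 mesenchymal markers was 2070 to 2131 CPM at 37 °C and 864 to 890 CPM at 39 °C, with 6 of 6 tested markers lower at 39 °C. The defining oligodendrocyte genes Mog, Olig1 and Olig2 and the adipocyte genes Cidec and Lep had 0 UMIs. The part of these marker shifts in the results for the lipid genes was not tested.

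SREBPs are transcription factors held as precursors in the endoplasmic reticulum membrane. When membrane sterol is low, the escort protein SCAP carries them to the Golgi, where proteases release the active domain, and when sterol is plentiful the INSIG proteins retain SCAP. SREBP-2, from Srebf2, acts mainly on cholesterol synthesis genes, SREBP-1, from Srebf1, acts mainly on fatty acid synthesis genes, and growing cells use both routes to make membrane.

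At 39 °C, 29 of the 35 genes were lower, 2 were higher and 4 did not pass the test, an edgeR quasi-likelihood test on UMIs summed per library with p-values adjusted over 15810 genes. The limit for a call was an adjusted p of 0.05. Of all genes tested, 30.5% were lower and 31.5% higher, against 82.9% and 5.7% of the 35. In the sterol branch 16 of 19 genes were lower and 0 higher, in the fatty acid branch 9 of 11 were lower and 1 higher, and among the regulators 4 of 5 were lower and 1 higher. The median log2 fold change was -0.68 in the sterol branch, -0.50 in the fatty acid branch and -0.30 among the regulators, beside 0.02 over all genes tested. The medians of the branches were not tested against each other.

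Falls of at least 2-fold were found for 6 of the 35 genes (17.1%), beside 7.62% of all genes tested, with 3 in each synthetic branch and 0 among the regulators. In 28 of the 35 genes every library at 39 °C was below every library at 37 °C, a separation shown by 28% of all genes tested (56.7% in either direction). Another 2 genes, Scap and Acss2, had every library at 39 °C above those at 37 °C, and in 5 genes (Tm7sf2, Msmo1, Sc5d, Fads1 and Srebf1) the temperatures overlapped. Levels are given as CPM within a gene and are not compared between genes, since the efficiency of capture at the 3' end differs from gene to gene.

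**Figure D1:**
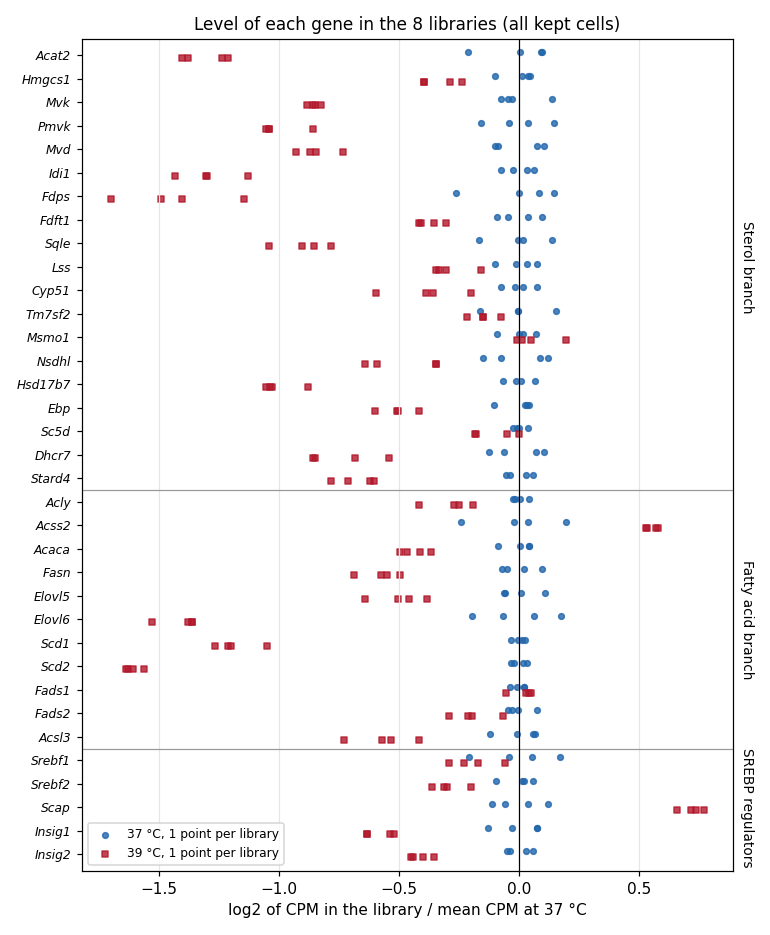
Level of each of the 35 genes in the 8 libraries, as the log2 of its CPM over the gene's mean CPM at 37 °C, with 1 point per library and genes ordered by branch. Blue circles are the 4 libraries at 37 °C and red squares the 4 at 39 °C, and in 28 genes the red points all lie left of the blue ones, while in Scap and Acss2 they all lie right.

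**Figure D2:**
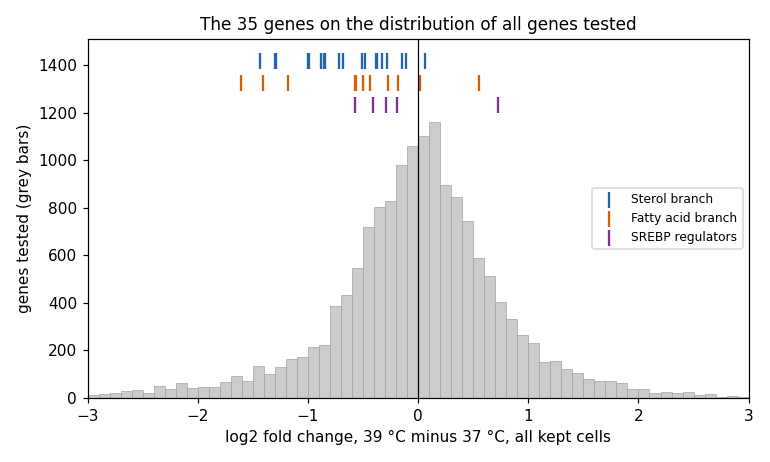
Number of genes tested (grey bars, bins of log2 fold change between the temperatures in all kept cells, 170 genes beyond the axis not drawn), with the 35 genes as ticks coloured by branch. Most ticks of both synthetic branches lie left of 0, where the median of all genes tested is 0.02.

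Summed over a branch, the sterol genes gave 834, 910, 900 and 937 CPM in the libraries at 37 °C and 589, 580, 579 and 536 CPM at 39 °C. The fatty acid genes gave 728, 752, 735 and 750 CPM at 37 °C and 414, 419, 418 and 406 CPM at 39 °C. The level at 39 °C was thus 63.8% of that at 37 °C for the sterol branch and 55.9% for the fatty acid branch, and it was 92.1% for the regulators. The order of these sums depended on 1 gene: without Scd2 its level at 39 °C was 73.8% of that at 37 °C, above the sterol value, while the sterol sum without its most counted gene, Ebp, gave 61.3%.

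The promoters of several of these genes are shown because the genes moved together. The promoter windows, from RefSeq on GRCm38.p6, run from 250 bases before to 50 bases after the start of transcription, and 28 of the 35 genes had a window. Fads1, Fdft1, Fdps, Scd1, Scd2, Sqle and Stard4 had none. The motif shares and medians below thus leave out Scd2, Fdps and Scd1, which fell at least 2-fold at 39 °C. Capitals mark the letters CCAAT on either strand (ATTGG on the other), the core of the box bound by NF-Y, a partner of SREBPs. In Hmgcs1 they also mark the sterol regulatory element, searched as TCACNCCAC on both strands.
Hmgcs1, chr13:119690101-119690400, plus strand: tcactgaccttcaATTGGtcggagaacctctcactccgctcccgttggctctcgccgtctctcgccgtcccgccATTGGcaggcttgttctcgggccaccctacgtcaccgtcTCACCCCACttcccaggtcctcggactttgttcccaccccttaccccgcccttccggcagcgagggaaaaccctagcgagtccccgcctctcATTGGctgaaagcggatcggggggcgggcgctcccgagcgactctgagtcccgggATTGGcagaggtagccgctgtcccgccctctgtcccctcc
Idi1, chr13:8885356-8885655, plus strand: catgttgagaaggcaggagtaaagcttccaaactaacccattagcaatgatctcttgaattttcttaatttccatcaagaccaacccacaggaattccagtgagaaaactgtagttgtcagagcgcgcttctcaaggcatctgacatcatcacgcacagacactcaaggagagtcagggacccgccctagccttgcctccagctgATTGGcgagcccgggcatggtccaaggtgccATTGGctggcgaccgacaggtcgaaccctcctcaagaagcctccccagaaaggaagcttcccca
Mvk, chr5:114444019-114444318, plus strand: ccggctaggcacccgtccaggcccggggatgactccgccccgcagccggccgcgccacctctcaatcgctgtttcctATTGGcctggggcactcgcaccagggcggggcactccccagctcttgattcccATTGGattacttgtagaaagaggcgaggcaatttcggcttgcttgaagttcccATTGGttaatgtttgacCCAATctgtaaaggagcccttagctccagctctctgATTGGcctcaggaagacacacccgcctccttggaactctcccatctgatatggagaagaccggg
Fasn, chr11:120824498-120824797, minus strand: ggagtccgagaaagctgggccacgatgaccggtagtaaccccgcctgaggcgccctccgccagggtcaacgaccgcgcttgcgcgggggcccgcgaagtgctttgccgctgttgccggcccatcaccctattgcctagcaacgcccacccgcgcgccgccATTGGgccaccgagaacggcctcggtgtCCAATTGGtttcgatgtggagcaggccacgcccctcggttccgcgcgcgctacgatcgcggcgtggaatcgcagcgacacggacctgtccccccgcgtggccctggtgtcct
Elovl6, chr3:129532136-129532435, plus strand: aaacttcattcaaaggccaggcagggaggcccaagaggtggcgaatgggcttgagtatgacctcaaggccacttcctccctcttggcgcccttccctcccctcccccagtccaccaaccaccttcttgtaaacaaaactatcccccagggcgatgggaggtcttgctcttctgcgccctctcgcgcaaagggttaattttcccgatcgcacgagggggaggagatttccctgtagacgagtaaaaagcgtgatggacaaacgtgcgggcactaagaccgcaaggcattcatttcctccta

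These windows hold 4 CCAAT matches in Hmgcs1, 2 in Idi1, 5 in Mvk, 3 in Fasn and 0 in Elovl6, and in Fasn a pair of them, on opposite strands, overlaps. A CCAAT match was found in 14 of 15 sterol windows (93.3%), 5 of 8 fatty acid windows (62.5%) and 4 of 5 regulator windows (80%), beside 42.8% of the genes tested and 37.4% of all 32851 windows. The GC box letters GGGCGG were in 93.3% of sterol windows, 50% of fatty acid windows and all 5 regulator windows, beside 65.3% of the genes tested and 35.7% of all windows. TCACNCCAC was in 1 member window, that of Hmgcs1, 137 bases before the start (3.57% of members, 1.46% of genes tested, 1.24% of windows), and the E-box CACGTG was in 6 (21.4%, beside 11.2% of genes tested and 7.15% of windows). The median log2 fold change between temperatures was -0.48 for the 23 members with a CCAAT match and -0.44 for the 5 without, which are Acat2, Scap, Acaca, Elovl6 and Fads2. A match of letters is a description of the window and was not tied to binding.

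The mevalonate steps, which turn acetyl-CoA into the isoprenoid units used for sterols, were lower at 39 °C in 7 of 7 genes. Fdps, which makes farnesyl diphosphate (GRCm38 chromosome 3, 89093588 to 89101959, minus strand), gave 74.7, 89.8, 99.2 and 95.1 CPM at 37 °C and 40.5, 33.9, 31.9 and 27.6 CPM at 39 °C. The levels fell 2.70-fold, or -1.43 ± 0.092 on the log2 scale (SE, n = 4 libraries each; edgeR adjusted p = 7.21e-11), with no overlap. Gm43738, an annotated gene on the same strand, overlaps Fdps, and how reads from the shared stretch were counted was not examined. Acat2, which condenses acetyl-CoA at the entry of the route, gave 23.4, 28.8, 27.2 and 28.9 CPM at 37 °C and 10.2, 11.7, 10.4 and 11.5 CPM at 39 °C. All 4 libraries at 39 °C lay below the lowest at 37 °C, and the change was -1.30 ± 0.073 on the log2 scale (edgeR adjusted p = 1.04e-11).

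Idi1, the isopentenyl diphosphate isomerase (GRCm38 chromosome 13, 8885501 to 8892451, plus strand; promoter above), gave 54.7, 56.7, 59.0 and 60.2 CPM at 37 °C and 23.3, 23.4, 26.3 and 21.3 CPM at 39 °C. Its fall of 2.44-fold, or -1.29 ± 0.058 on the log2 scale (edgeR adjusted p = 4.63e-13), left a wide gap between the temperatures. The kinases Pmvk (log2 fold change -0.99 ± 0.064) and Mvk (-0.85 ± 0.055) and the decarboxylase Mvd (-0.84 ± 0.069) fell by less than 2-fold. Hmgcs1, which makes HMG-CoA and carries the single sterol regulatory element match above, gave 49.5, 53.4, 54.7 and 54.3 CPM at 37 °C and 44.9, 43.3, 40.3 and 40.2 CPM at 39 °C. Its libraries did not overlap either, but its change of -0.33 ± 0.051 was the smallest of the 7 (edgeR adjusted p = 1.16e-05).

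From squalene to cholesterol, 8 of 11 genes were lower at 39 °C. Hsd17b7, a sterol 3-ketoreductase, gave 44.5, 46.2, 42.2 and 43.9 CPM at 37 °C and 21.7, 24.0, 21.5 and 21.3 CPM at 39 °C. The libraries did not overlap, and the change of -0.997 ± 0.052 on the log2 scale (edgeR adjusted p = 3.80e-12) fell just short of 2-fold. Sqle, the squalene epoxidase and a rate-limiting enzyme of the route, gave 33.7, 38.3, 37.8 and 41.7 CPM at 37 °C and 18.4, 21.0, 20.2 and 22.01 CPM at 39 °C, with no overlap and a change of -0.89 ± 0.066 on the log2 scale (edgeR adjusted p = 5.90e-10).

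Smaller falls were found in this segment for Dhcr7, which reduces 7-dehydrocholesterol (-0.72 ± 0.107 on the log2 scale, 49 to 150 UMIs per library), the sterol isomerase gene Ebp (-0.51 ± 0.051), Nsdhl (-0.48 ± 0.082), the demethylase gene Cyp51 (-0.38 ± 0.063), the squalene synthase gene Fdft1 (-0.37 ± 0.052) and the lanosterol synthase gene Lss (-0.28 ± 0.081). The call of Dhcr7 was lost when every cell was thinned to 5000 UMIs (edgeR adjusted p = 0.0929, with -0.32 on the log2 scale). Msmo1, a methylsterol oxidase, gave 37.3, 41.7, 39.7 and 40.1 CPM at 37 °C and 45.4, 41.1, 40.0 and 39.4 CPM at 39 °C. These values overlapped, and its change of 0.06 ± 0.053 did not pass the test (edgeR adjusted p = 0.349), nor did those of the desaturase gene Sc5d (-0.11 ± 0.054) and the reductase gene Tm7sf2 (-0.14 ± 0.122, 42 to 84 UMIs per library). Sc5d was called lower without 39 °C replicate 1 (-0.15, edgeR adjusted p = 0.0266), with RLE factors (-0.13, 0.0493) and after thinning (-0.21, 0.0165). Stard4, a carrier of sterol between membranes, gave 29.6, 29.3, 31.0 and 31.6 CPM at 37 °C and 19.97, 19.8, 18.5 and 17.6 CPM at 39 °C, a fall of 0.68 ± 0.054 on the log2 scale without overlap (edgeR adjusted p = 1.63e-09).

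Within the fatty acid branch the steepest falls were in desaturation and elongation. Scd2, a stearoyl-CoA desaturase that makes oleate (GRCm38 chromosome 19, 44293674 to 44306864, plus strand), gave 316, 332, 328 and 320 CPM at 37 °C and 109, 105, 106 and 104 CPM at 39 °C. It fell 3.06-fold, or -1.61 ± 0.045 on the log2 scale (edgeR adjusted p = 4.32e-16), the largest change of the 35 genes in all kept cells. Scd1, its neighbour on chromosome 19 and close paralog, gave 55.4, 56.0, 54.2 and 56.5 CPM at 37 °C and 24.2, 24.0, 26.8 and 23.1 CPM at 39 °C, a change of -1.18 ± 0.051 on the log2 scale (edgeR adjusted p = 2.17e-13). Both genes separated the temperatures fully, but how reads from stretches they share were counted was not examined.

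Elovl6, which lengthens palmitate, gave 10.2, 12.2, 11.1 and 13.2 CPM at 37 °C and 4.54, 4.05, 4.496 and 4.55 CPM at 39 °C. This fall of 2.65-fold (log2 fold change -1.41 ± 0.092, edgeR adjusted p = 1.05e-10) was on 80 to 376 UMIs per library. Fasn, the fatty acid synthase, gave 64.4, 65.5, 68.8 and 72.4 CPM at 37 °C and 42.1, 48.1, 45.5 and 46.3 CPM at 39 °C, with no overlap and a change of -0.57 ± 0.052 on the log2 scale (edgeR adjusted p = 9.90e-09). The acyl-CoA synthetase gene Acsl3 (-0.56 ± 0.060), the elongase gene Elovl5 (-0.50 ± 0.067), the acetyl-CoA carboxylase gene Acaca (-0.44 ± 0.051), the ATP citrate lyase gene Acly (-0.28 ± 0.050) and the desaturase gene Fads2 (-0.19 ± 0.061) also fell, and Fads2 was not called after thinning to 5000 UMIs (edgeR adjusted p = 0.184).

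The desaturases of this branch thus differed among themselves. Fads1, which acts on polyunsaturated fatty acids, gave 74.1, 77.2, 75.6 and 77.2 CPM at 37 °C and 73.1, 77.6, 78.7 and 78.3 CPM at 39 °C. The temperatures overlapped at a change of 0.02 ± 0.044 on the log2 scale (edgeR adjusted p = 0.734), and its sign turned without the library 37 °C replicate 1 (-0.02) and after thinning (-0.04). Acss2, which makes acetyl-CoA from acetate, went the other way, with 5.90, 5.08, 5.29 and 4.35 CPM at 37 °C and 7.66, 7.46, 7.43 and 7.71 CPM at 39 °C. This gene rose 1.46-fold (log2 fold change 0.55 ± 0.091, edgeR adjusted p = 2.89e-05), but 3 annotated genes on the opposite strand overlap it and strand use in the counting is not given in the sources used here.

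Among the regulators, the gene for the escort protein moved against those for the factors and the retention proteins. Scap (GRCm38 chromosome 9, 110333288 to 110384950, plus strand) gave 34.2, 32.9, 36.5 and 38.7 CPM at 37 °C and 56.1, 58.5, 59.3 and 60.6 CPM at 39 °C. It rose 1.65-fold, or 0.72 ± 0.053 on the log2 scale (edgeR adjusted p = 4.61e-10), with every library at 39 °C above every one at 37 °C. Insig1, itself an SREBP target whose product holds SCAP back, gave 24.2, 27.9, 27.9 and 26.0 CPM at 37 °C and 17.1, 18.5, 18.3 and 17.1 CPM at 39 °C, a fall of 0.58 ± 0.059 on the log2 scale (edgeR adjusted p = 5.49e-08). Insig2, the other retention gene, fell by 0.41 ± 0.045 (edgeR adjusted p = 1.72e-07), and neither gene overlapped between temperatures.

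Srebf2 gave 53.0, 59.1, 57.1 and 57.6 CPM at 37 °C and 49.4, 46.0, 45.6 and 44.1 CPM at 39 °C, a change of -0.30 ± 0.049 on the log2 scale without overlap (edgeR adjusted p = 3.29e-05). Srebf1 gave 25.6, 28.8, 33.4 and 30.8 CPM at 37 °C and 28.4, 24.2, 26.3 and 25.3 CPM at 39 °C. The lowest library at 37 °C lay within the range at 39 °C, and the change of -0.19 ± 0.070 (edgeR adjusted p = 0.0245) was no longer called without 37 °C replicate 3 (adjusted p = 0.104), 37 °C replicate 4 (0.0549), 39 °C replicate 2 (0.0878) or 39 °C replicate 4 (0.0539). The counts do not tell the SREBP-1a and SREBP-1c transcripts of Srebf1 apart, and they say nothing of how much factor was released from the membrane.

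Whether the falls were also present among cells of 1 proliferation class was asked by splitting each library by Mki67, a marker of cycling cells. At 37 °C, 51.1% to 59.4% of the cells of a library had an Mki67 UMI (4746 of 8550 cells in all), and at 39 °C 5.44% to 7.41% had one (587 of 9801). With every cell thinned to 5000 UMIs these shares were 41.5% to 47.3% and 4.21% to 5.23%, with 668 shallower cells left out at 37 °C and 1668 at 39 °C. Cells with an Mki67 UMI also held more UMIs, with medians per library of 11448 to 17162 against 8296 to 13058.5 at 37 °C and of 8385.5 to 17890 against 6557 to 16585.5 at 39 °C. A cell without an Mki67 UMI was not shown to be out of cycle.

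In cells without Mki67 UMIs, 28 of the 35 genes were lower at 39 °C, 2 higher and 5 not called, a share of 80.0% lower beside 27.1% of the 15040 genes tested, of which 29.7% were higher. The sterol branch had 17 of 19 genes lower (median log2 fold change -0.60), the fatty acid branch 8 of 11 (-0.47) and the regulators 3 of 5 (-0.26), beside a median of 0.04 over all genes tested. Sc5d, not called in all kept cells, was among the 17 (-0.155 ± 0.062, edgeR adjusted p = 0.0369). Its call was lost with Top2a defining the class (edgeR adjusted p = 0.224), with no count filter (0.0841), in DESeq2 (adjusted p = 0.0531) and without several single libraries. Lss was not called with Top2a (edgeR adjusted p = 0.0543) or without 37 °C replicate 1 (0.115) or 4 (0.0849). Of the 29 genes lower in all kept cells, 27 were also lower here. All kept cells include the cells of this class, so these calls are not independent. The share of all genes tested with both calls was not counted. Falls of at least 2-fold were found for 7 genes (beside 5.42% of genes tested), namely Elovl6 (-1.49 ± 0.109), Scd2 (-1.48 ± 0.048), Fdps (-1.26 ± 0.090), Scd1 (-1.23 ± 0.059), Hsd17b7 (-1.17 ± 0.063), Idi1 (-1.14 ± 0.075) and Acat2 (-1.04 ± 0.085). Scap was higher by 0.75 ± 0.063 and Acss2 by 0.41 ± 0.107.

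The genes that did not pass the test in these cells were Srebf1 (-0.05 ± 0.073), Fads2 (-0.09 ± 0.082), Msmo1 (-0.04 ± 0.058), Fads1 (0.00 ± 0.052) and Tm7sf2 (0.11 ± 0.183). The cells of this class at 37 °C were not free of cycling cells: 8 of 8 genes of a proliferation list were lower at 39 °C among them (median log2 fold change -1.68), and the part of this in the fall of the lipid genes was not tested.

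Among cells with Mki67 UMIs, 25 of the 35 genes were lower at 39 °C, 1 higher and 9 not called, a share of 71.4% lower beside 18.6% of 14404 genes tested, of which 14.9% were higher. These counts come from 73 to 190 cells and 1342821 to 2191676 UMIs per library at 39 °C. The median log2 fold change was -0.71 in the sterol branch, -0.41 in the fatty acid branch and -0.37 among the regulators, beside -0.03 over all genes tested. Elovl6 (-1.95 ± 0.281), Scd2 (-1.66 ± 0.072), Scd1 (-1.31 ± 0.102), Fdps (-1.27 ± 0.106), Mvd (-1.09 ± 0.177) and Hsd17b7 (-1.05 ± 0.117) fell at least 2-fold (2.08% of genes tested did), and Scap was the gene that rose (0.35 ± 0.093). In all, 24 genes were lower at 39 °C in all kept cells and in both classes, and the share of all genes with these calls was not counted. After thinning to 5000 UMIs the count lower among cells with Mki67 UMIs was 11. Thinning left 40 to 130 such cells per library at 39 °C, and the share of all genes called lower there was not counted.

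**Figure D3:**
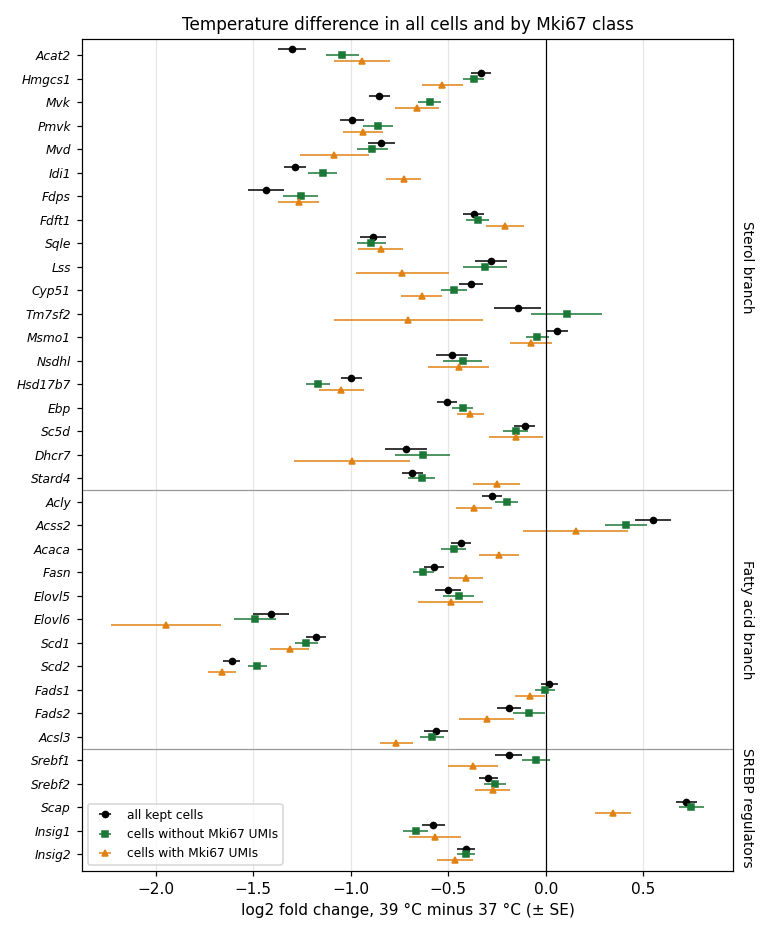
Log2 fold change between 39 °C and 37 °C for each gene, with bars of 1 SE, in all kept cells (black circles), cells without Mki67 UMIs (green squares) and cells with Mki67 UMIs (orange triangles), each from 4 libraries a temperature. For Scd2, Scd1, Fdps, Hsd17b7 and Elovl6 the point lies near or beyond -1 in all 3, and Scap lies right of 0 in all 3.

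The classes were also compared within libraries, with the library as a block. At 37 °C, 10 of the 35 genes were higher in cells with Mki67 UMIs, 4 were lower and 21 were not called, a share of 40.0% called in either direction beside 35% of 14744 genes tested (19.8% higher and 15.3% lower). The sterol branch held 7 of the 10 genes that were higher and 3 of the 4 that were lower. The sterol median log2 fold change was 0.10, beside -0.05 in the fatty acid branch and 0.01 over all genes tested. When cells were thinned to 5000 UMIs the sterol median was -0.08 and 5 genes were higher, so the direction of the median turned with thinning.

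At 37 °C, 5 of the 10 genes higher in cells with Mki67 UMIs were genes of the mevalonate steps, of which Hmgcs1 and Mvd were not called. Acat2 gave 26.8, 31.7, 31.4 and 32.8 CPM in cells with Mki67 UMIs and 19.5, 24.8, 20.9 and 23.7 CPM in those without, a difference of 0.47 ± 0.063 on the log2 scale (edgeR adjusted p = 8.74e-11), higher in 4 of 4 libraries. Mvk (0.44 ± 0.054), Idi1 (0.33 ± 0.047), Fdps (0.30 ± 0.039) and Pmvk (0.23 ± 0.047) were higher too, followed by Scd2 (0.21 ± 0.027), Srebf1 (0.20 ± 0.059), Stard4 (0.15 ± 0.059), Ebp (0.15 ± 0.030) and Acly (0.12 ± 0.048). Hsd17b7 (-0.31 ± 0.049), Msmo1 (-0.20 ± 0.051), Cyp51 (-0.18 ± 0.043) and Insig1 (-0.16 ± 0.060) were lower. With Top2a defining the class, Cyp51 (-0.004, edgeR adjusted p = 0.967), Hsd17b7 (0.016, 0.869) and Insig1 (-0.103, 0.233) were not called. Without the block, Cyp51 (edgeR adjusted p = 0.0616) and Ebp (0.0608) were not called. After thinning to 5000 UMIs the calls of Idi1 (0.10, edgeR adjusted p = 0.283), Pmvk (0.15, 0.105), Srebf1 (0.05, 0.772), Stard4 (0.16, 0.199), Acly (0.02, 0.918), Msmo1 (-0.19, 0.0521) and Insig1 (-0.20, 0.097) were lost. Stard4 and Acly were also not called with RLE factors (edgeR adjusted p = 0.0721 and 0.116), with library totals, under either other count filter, in DESeq2 or without the block, and Srebf1 and Insig1 were not called in DESeq2 (adjusted p = 0.0705 and 0.0904) or without the block. Stard4 was not called without 37 °C replicate 1 (edgeR adjusted p = 0.359) or 3 (0.217), and Srebf1 was not called without 37 °C replicate 4 (0.0592). Insig1 lost its call without 37 °C replicate 1 (edgeR adjusted p = 0.116), 3 (0.063) or 4 (0.129), and Acly without 37 °C replicate 1 (0.136), 2 (0.0656) or 4 (0.435) or 39 °C replicate 1 (0.0777). All 10 genes that were higher in cells with Mki67 UMIs were also lower at 39 °C in all kept cells, as were 3 of the 4 that were lower. Of all 35 genes 29 were lower at 39 °C, and the share of genes tested with both calls was not counted.

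At 39 °C, 6 genes were higher in cells with Mki67 UMIs, 4 were lower and 25 were not called, a share of 28.6% called beside 28% of genes tested (13.1% higher and 14.9% lower). The 6 were all sterol genes and were also higher at 37 °C: Idi1 (0.74 ± 0.104), Acat2 (0.57 ± 0.154), Stard4 (0.54 ± 0.121), Mvk (0.38 ± 0.116), Fdps (0.31 ± 0.095) and Ebp (0.19 ± 0.047). Lower were Scap (-0.41 ± 0.082), Cyp51 (-0.35 ± 0.090), Hmgcs1 (-0.25 ± 0.094) and Acsl3 (-0.24 ± 0.079). With Mki67 as the class marker, Cyp51 was the gene lower at both temperatures. In 0 genes did the calls point in opposite directions. The count of 6 fell to 2 without 39 °C replicate 4, when Acat2 (edgeR adjusted p = 0.0922), Mvk (0.0522), Fdps (0.241) and Ebp (0.0692) were no longer called. Mvk (edgeR adjusted p = 0.102) and Cyp51 (0.156) lost their calls without 39 °C replicate 3, Hmgcs1 without 39 °C replicate 1 (0.0511) or 4 (0.369), and Acsl3 without 39 °C replicate 1 (0.0651) or 2 (0.0613). After thinning, Mvk (0.53, edgeR adjusted p = 0.0546), Fdps (0.22, 0.466), Scap (-0.28, 0.207), Hmgcs1 (-0.18, 0.545) and Acsl3 (-0.30, 0.149) were not called. With Top2a defining the class, Acat2 (edgeR adjusted p = 0.117), Mvk (0.181), Hmgcs1 (0.311), Acsl3 (0.0569) and Cyp51 (0.906) were not called, and Hmgcs1 was also not called with RLE factors (0.0708), library totals (0.114), filterByExpr, DESeq2 or no block.

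**Figure D4:**
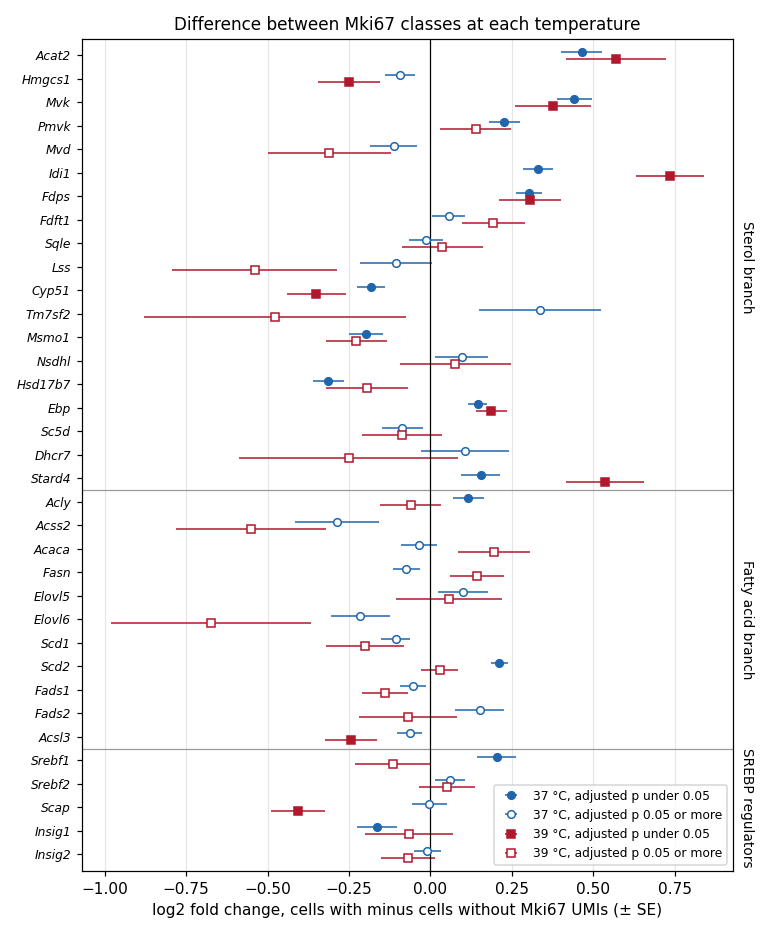
Log2 fold change between cells with and without Mki67 UMIs of the same library for each gene, with bars of 1 SE, at 37 °C (blue circles) and 39 °C (red squares), filled where the edgeR adjusted p was under 0.05. Acat2, Mvk, Idi1, Fdps, Ebp and Stard4 are filled right of 0 at both temperatures, and the fatty acid genes lie mostly near 0 or open.

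The effect of Mki67 class differed between the temperatures for 4 of the 35 genes (11.4%, beside 13.3% of genes tested), 2 in each direction (beside 5.45% in the direction of Idi1 and Stard4 and 7.83% in that of Scap and Scd2). Idi1 gave 59.8, 62.9, 67.4 and 63.4 CPM with and 49.8, 47.5, 46.7 and 57.4 CPM without Mki67 UMIs at 37 °C, and 38.2, 38.3, 36.0 and 39.3 CPM with and 22.2, 22.5, 25.6 and 20.1 CPM without at 39 °C. It was higher with Mki67 UMIs in 8 of 8 libraries, and the effect was larger at 39 °C by 0.41 ± 0.112 on the log2 scale (edgeR adjusted p = 0.00481, and 0.0755 without 39 °C replicate 4). For Stard4 the effect was larger at 39 °C by 0.38 ± 0.133 (edgeR adjusted p = 0.0367), on 196 UMIs in cells with Mki67 UMIs at 39 °C, and the level did not rise in 39 °C replicate 4 (17.7 CPM in both classes).

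Scap gave 43.0, 42.1, 50.3 and 44.8 CPM with and 57.7, 60.2, 60.2 and 62.1 CPM without Mki67 UMIs at 39 °C, and 34.4, 34.3, 36.5 and 38.9 CPM with and 35.3, 31.2, 38.1 and 39.7 CPM without at 37 °C. The classes overlapped at 37 °C and separated at 39 °C, and the effects differed by -0.40 ± 0.099 (edgeR adjusted p = 0.00115). For Scd2 the effects differed by -0.18 ± 0.063 (edgeR adjusted p = 0.0328), with 340 to 354 CPM against 292 to 304 CPM at 37 °C and 104 to 117 CPM against 104 to 110 CPM at 39 °C. Each of the 4 differences lost its call under other settings. Those of Idi1, Stard4 and Scap did so with Top2a as the class marker, and that of Scd2 with other scaling or count filters. After thinning, the differences of Stard4 (0.43) and Scd2 (-0.19) did not shrink but were no longer called. With Top2a UMIs defining the class, that of Idi1 was -0.08, that of Stard4 -0.01 and that of Scap -0.18 (edgeR adjusted p = 0.0962). After thinning that of Scap was -0.27 (edgeR adjusted p = 0.452). The call of Stard4 was lost without 37 °C replicate 2 (edgeR adjusted p = 0.0875) or 4 (0.0967) or 39 °C replicate 2 (0.224) or 3 (0.279). That of Scd2 was lost without 37 °C replicate 1 (edgeR adjusted p = 0.0646) or 2 (0.0591) or 39 °C replicate 2 (0.110) or 3 (0.160), and with RLE factors (0.173), library totals (0.421), filterByExpr, no count filter, DESeq2, thinning or no block. Stard4 was also not called in DESeq2 (adjusted p = 0.103), after thinning (edgeR adjusted p = 0.338) or without the block, and Idi1 was not called with 2 or more Mki67 UMIs (0.24, edgeR adjusted p = 0.308).

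**Figure D5:**
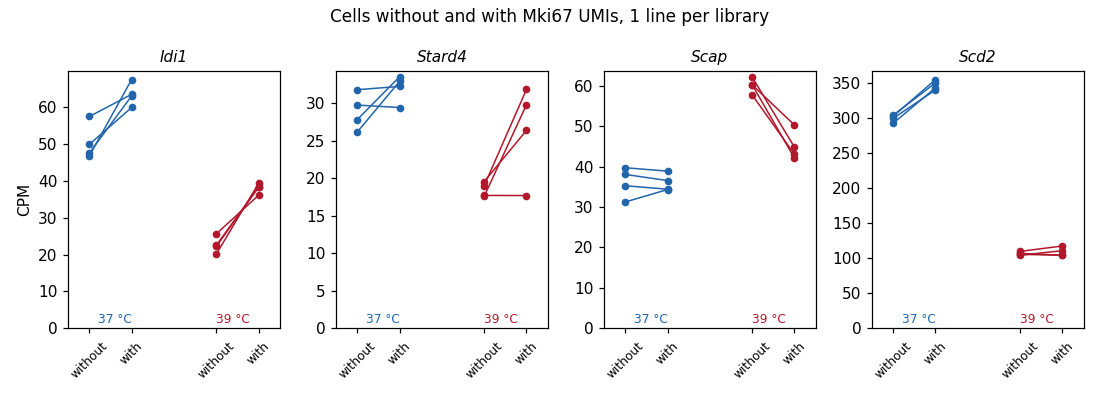
CPM of Idi1, Stard4, Scap and Scd2 in cells without and with Mki67 UMIs, with 1 line per library, blue at 37 °C and red at 39 °C. Lines of Idi1 rise in all 8 libraries, those of Scap fall in the 4 libraries at 39 °C, and those of Scd2 rise at 37 °C from 292 to 304 up to 340 to 354 CPM.

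The other genes of sterol and fatty acid handling, 53 genes in 6 lists, moved in both directions. At 39 °C 22 were lower (41.5%, beside 30.5% of all genes tested) and 13 higher (24.5%, beside 31.5%), and their median change was -0.05 on the log2 scale. They were not tested against the 35 genes. Of 17 other genes of fatty acid binding, activation and synthesis 10 were lower (58.8%) and 1 higher (median -0.29). Of 5 genes of the liver X receptor and sterol efflux 0 were lower and 3 higher. Their median of 0.84 was the value of Abcg1, which was not called, on 10 UMIs at 37 °C and 16 at 39 °C in all. Nr1h2, the other gene not called, changed by 0.065 ± 0.052. Other genes of sterol sensing had 5 of 9 lower and 3 higher, those of the isoprenoid side branches 4 of 8 lower and 2 higher, those of sterol uptake and storage 2 of 8 lower and 3 higher, and those of glycerolipid synthesis 1 of 6 in each direction.

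Abca1, which exports cholesterol and is a target of the liver X receptor, rose from 28.3 ± 3.598 CPM at 37 °C to 84.3 ± 2.08 CPM at 39 °C (SD, n = 4 libraries each), or 1.58 ± 0.067 on the log2 scale (edgeR adjusted p = 1.58e-13). Nr1h3, the liver X receptor alpha gene, rose by 2.05 ± 0.230 on the log2 scale, on 40 UMIs at 37 °C and 146 at 39 °C in all. Lpin1, a phosphatidate phosphatase, rose from 52.1 ± 4.54 to 130.2 ± 5.45 CPM (log2 fold change 1.32 ± 0.057, edgeR adjusted p = 2.18e-13). Fabp5, a fatty acid carrier, fell from 16.3 ± 2.14 to 3.17 ± 0.410 CPM (-2.34 ± 0.111, edgeR adjusted p = 7.93e-13). Pdss1, of ubiquinone side chain synthesis, fell by 1.40 ± 0.120 and the lipoprotein receptor gene Lrp8 by 1.38 ± 0.201, the latter on 215 UMIs at 37 °C and 72 at 39 °C in all.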

How the data were processed

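Libraries were made from trypsinized cells (Chromium 3' V3). The authors aligned reads to the mouse genome (mm10, the assembly GRCm38) with Cell Ranger 3.0.1 and deposited UMI counts per gene and cell, not normalized. Cells over 15% mitochondrial UMIs, under 200 genes or over 6000 genes were left out, the study's limits, and no doublet caller was run. At most 5 barcodes were shared by a pair of libraries, and library pairs of 1 temperature differed by more than sampling (chi-square at least 2.74 per degree of freedom).

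Counts were summed per library, or per library and Mki67 class (1 or more UMIs, or 0). Genes averaging 1 or more counts per sum were tested in edgeR 4.0.16 (R 4.3.3) with TMM factors and the quasi-likelihood test, on temperature alone or, for classes, on 16 sums with library as a block, with Benjamini-Hochberg adjustment over all genes tested. Mki67 was left out of the class fits. CPM are per 1000000 counts of a sum scaled by TMM. SE is the one implied by the F statistic. Alternatives (RLE factors or totals, other count filters, DESeq2 1.42.0, other cell filters, thinning to 5000 UMIs, other classes, each library left out) are in the closing section. The fits were tested on simulated data. Python 3.11.15 was used for sums. Named genes are all members, the 3 largest called changes per direction of the other pathway lists, and Mki67. The members and lists were chosen with earlier results of these data known. Certain genes of these pathways are not reported here.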

Additional observations from a re-analysis of the deposited data

Results flagged for a closer look

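In 4 of 70 sets of 4 libraries (35 genes at each temperature), 1 library stood apart from the other 3, and chance alone gives about 1 in 20. Pmvk was 28.3 CPM in 39 °C replicate 3 and 24.7 to 24.9 CPM in the others. Hsd17b7 was 24.0 CPM in 39 °C replicate 2 and 21.3 to 21.7 CPM in the others. Ebp was 231 CPM in 37 °C replicate 1 and 253 to 255 CPM in the others. Elovl6 was 4.05 CPM in 39 °C replicate 2 and 4.496 to 4.55 CPM in the others. Each of these genes was called lower at 39 °C with and without that library.

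For 4 genes the effect of Mki67 class differed between the temperatures by the test of that difference (edgeR, adjusted over 14744 genes): by 0.41 on the log2 scale for Idi1, 0.38 for Stard4, -0.40 for Scap and -0.18 for Scd2.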

How the results depend on the processing

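In all kept cells, 29 genes were lower at 39 °C in the analysis reported and 27 to 30 under every alternative (28 to 30 with 1 library left out), and 2 were higher throughout. The sterol median was -0.66 to -0.72 and the fatty acid median -0.45 to -0.54 with 1 library left out. Thinning to 5000 UMIs gave -0.53 and -0.40. In cells without Mki67 UMIs 25 to 28 genes were lower (26 to 28 with 1 library left out). In cells with Mki67 UMIs 21 to 25 were lower with 1 library left out and 11 after thinning, which left 40 to 130 such cells per library at 39 °C. The number higher was 0 with 2 or more Mki67 UMIs and 2 with Top2a. Another scaling moved the median of all genes by under 0.1 on the log2 scale.

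Between classes at 37 °C, 4 genes were lower and 10 higher. The number lower was 7 with RLE factors, with filterByExpr and with 2 or more Mki67 UMIs, 10 with library totals and 2 with no replicate block. The number higher was 5 after thinning, 6 with no replicate block and 16 with Top2a. The sterol median was -0.079 after thinning, and the fatty acid median was -0.094 with totals, -0.11 after thinning and 0.13 with Top2a. At 39 °C the number lower (4) was 2 with totals or thinning, 9 with 2 or more Mki67 UMIs and 1 with Top2a, and the number higher was 2 to 6 with 1 library left out. For the difference between temperatures (2 lower, 2 higher), the number lower was 1 with RLE factors, totals, filterByExpr, no filter, DESeq2 or no replicate block, 0 after thinning and 4 with Top2a. The number higher was 1 with DESeq2, no replicate block, 2 or more Mki67 UMIs or Top2a. With 1 library left out both were 1 to 2. The causes were not tested.

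Single genes reversed their sign as follows. In all kept cells Fads1 was -0.039 after thinning, and -0.015 to 0.032 with 1 library left out (negative without 37 °C replicate 1). In cells without Mki67 UMIs Fads1 was 0.008 with no filter, 0.007 with no cell filter, 0.002 with no upper limit on genes, 0.132 with Top2a, and -0.025 to 0.030 with 1 library left out. There Tm7sf2 was -0.062 after thinning, -0.132 with Top2a and -0.053 to 0.218 with 1 library left out, and Srebf1 was 0.06 with Top2a and -0.112 to 0.018 with 1 library left out. With Top2a, the class effects of Hsd17b7 at 37 °C (0.016) and Cyp51 at 39 °C (0.014) and the differences of Idi1 (-0.084) and Stard4 (-0.009) reversed.

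No pairing of the libraries by replicate number was seen. The correlation of deviations from the group means between libraries of the same number was -0.121, -0.117, -0.0946 and 0.291. Between libraries of different numbers it was -0.320 to 0.310, so these values cannot decide whether the libraries were paired. With the replicate block 29 genes were lower and 2 higher at 39 °C in all kept cells, 27 and 2 without Mki67 UMIs and 25 and 1 with them. Depth limited the class comparisons at 39 °C, where cells with Mki67 UMIs gave 1342821 to 2191676 UMIs per library.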
